A study of Mus musculus with 217 samples.

Results

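The genes described here are 37 regulators of pre-mRNA splicing, read over 6 times of day in 3 subregions of the mouse striatum. They are the protein-coding genes whose symbol starts with Srsf (11 SR proteins) or Hnrn (20 hnRNP proteins), together with the kinases Clk1, Clk2, Clk3 and Clk4 and the splicing activators Tra2a and Tra2b. All 37 annotated members were present in each of the 3 expression tables, out of 11867 genes in the nucleus accumbens (NAc), 12101 in the dorsomedial striatum (DMS) and 11394 in the dorsolateral striatum (DLS), and 12270 genes in all.

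The animals were male and female C57BL/6J mice of about 10 weeks, a wild-type inbred strain, and the labels name no transgene or treatment. Light and darkness lasted 12 h each, with zeitgeber time (ZT) counted in hours from lights on, and groups were killed at ZT2, ZT6, ZT10, ZT14, ZT18 and ZT22. Bilateral punches of 1 mm were taken over the 3 subregions, and total RNA was sequenced as 77 NAc libraries (37 female, 40 male), 70 DMS libraries (34 female, 36 male) and 70 DLS libraries (35 of each sex). A punch contains neurons, glia and vessel cells, so fewer cells of a type and less RNA per cell cannot be told apart in these bulk samples. Libraries of the 3 subregions were taken from shared animals, and each table was normalised separately, so results are set side by side between subregions and their differences were not tested.

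SR proteins bind exonic enhancers and help the spliceosome to define an exon, whereas many hnRNP proteins bind silencers in exons or introns and oppose that choice. CDC-like kinases, encoded by the Clk genes, phosphorylate the arginine- and serine-rich tails of SR and Tra2 proteins and so control where these proteins sit in the nucleus and how they act. Many genes of these families limit their own protein through an alternative exon or retained intron that sends the transcript to decay or holds it in the nucleus, and the activity of Clk1 and Clk4 is known to be sensitive to small changes of temperature within the daily body temperature cycle.

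Reads recovered from the deposited values ranged from 35711640 to 57468484 per DMS library and from 29719087 to 56799764 per DLS library; for NAc the depth could not be recovered, because only 1.99% of the values were whole reads. None of 13 markers of medium spiny neurons, the main striatal neuron, was listed at 0 in any library. The mitochondrial ribosomal RNAs mt-Rnr1 and mt-Rnr2 took 19% to 52.6% of the normalised counts in DMS, where 37 libraries formed a low and 33 a high class. This share moved with time in DMS: its median was 24.5% at ZT2, 25.6% at ZT6, 35.9% at ZT10, 39.8% at ZT14, 41.1% at ZT18 and 23.8% at ZT22. All 26 DMS libraries of animals numbered 31 and higher lay in the high class and all 37 low-class libraries came from animals numbered up to 29, so that class and number range overlapped; the labels do not say what the numbers stand for. In DLS, 4 libraries stood apart by a low share: the male numbered 13 at ZT6 (13.2%) and the females numbered 2, 3 and 4 at ZT22 (27.7% to 29.9%), against at least 34.6% in the others. The DLS male numbered 13 also had 68.4% of its normalised counts in the rRNA-like genes Gm42418 and Gm26917, against at most 3.89% in the other DLS libraries.

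Daily rhythms of splicing regulators were found in every subregion (limma with a 24 h cosine and sine and a sex term, Benjamini-Hochberg adjustment over all genes of a table, adjusted p under 0.05). In NAc 12 of the 37 members passed, where 2.56% of all genes did. In DMS 29 of 37 passed, where 51.3% of all genes did, and with the mitochondrial rRNA share as covariate 26 of 37 passed, against 28.6% of all genes. In DLS 23 of 37 passed, against 21% of all genes. The tests that passed were spread over the families: of the 11 SR proteins 3 passed in NAc, 10 in DMS, 9 in DMS with the covariate and 7 in DLS, and of the 20 hnRNP proteins 8, 16, 14 and 13 did. Among the 4 Clk kinases none passed in NAc (limma, smallest adjusted p 0.528, and 0 at an unadjusted p under 0.05) and 1 passed in each of the other fits.

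Most of these rhythms were shallow. The median fold from fitted trough to fitted peak over all 37 members was 1.13 in NAc, 1.19 in DMS, 1.11 in DMS with the covariate and 1.12 in DLS, beside medians of 1.11, 1.16, 1.10 and 1.10 over all genes. Folds over 1.25 that passed the test were found for 4 members in NAc (Srsf5, Hnrnpdl, Tra2a and Srsf10), 12 in DMS, 5 in DMS with the covariate and 6 in DLS. These are 10.8%, 32.4%, 13.5% and 16.2% of the members, beside 1.69%, 22.8%, 6.87% and 6.71% of all genes. Of the genes that passed a smaller share of the members than of all genes had such a fold: 33.3% against 65.8%, 41.4% against 44.4%, 19.2% against 24% and 26.1% against 31.9%. The same 4 genes were among the members with such folds in every fit, and they fell into opposite phases, with Srsf5 and Hnrnpdl peaking in the middle of the light phase and Tra2a and Srsf10 in the dark.

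**Figure D1:**
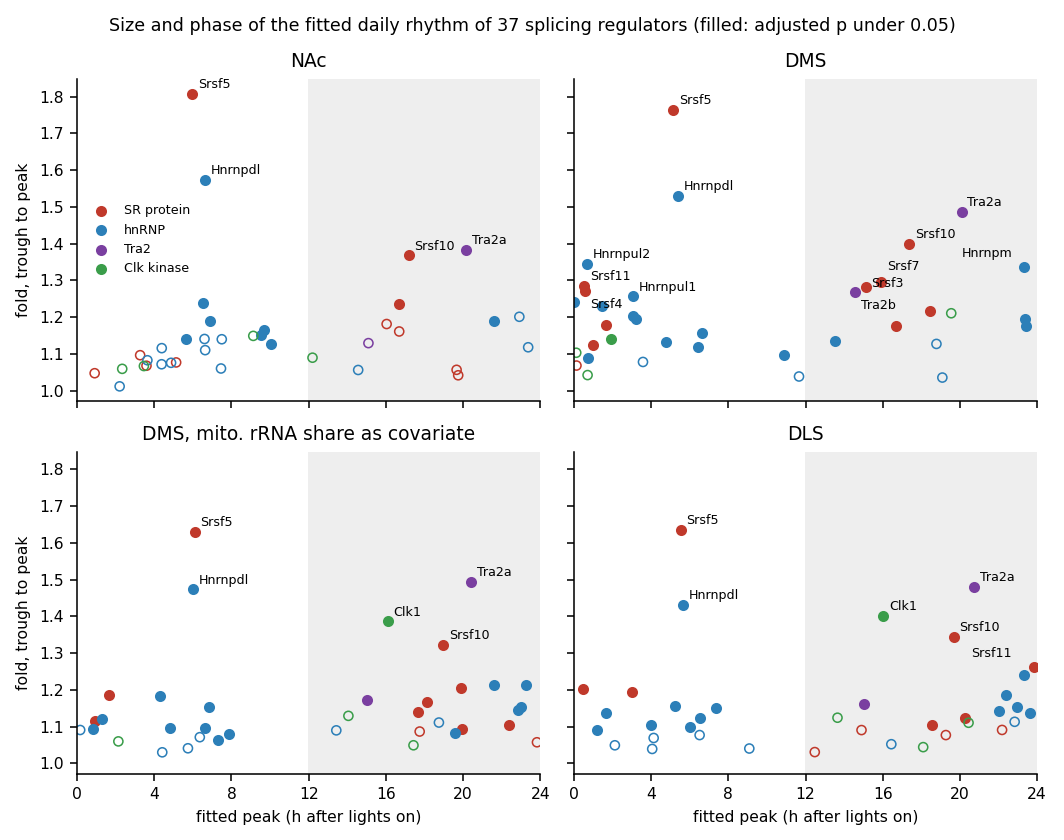
Fitted daily rhythm of the 37 splicing regulators in NAc, DMS, DMS with the mitochondrial rRNA share as covariate, and DLS: the x axis is the hour of the fitted peak after lights on, the y axis the fold from trough to peak, colours mark the families, filled points passed the test and the dark phase is shaded. Srsf5 and Hnrnpdl stand highest in the light phase, at folds of 1.43 to 1.81, and Tra2a, at 1.38 to 1.49, is the highest point of the dark phase in each panel.

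Srsf5 (ENSMUSG00000021134, GRCm38 chr12:80945504-80950507), an SR protein that activates splicing from purine-rich exonic enhancers, had the largest daily fold of all members. At ZT6 its log2 normalised count had a lowest, median and highest value of 10.86, 11.51 and 12.04 in NAc (13 libraries), 11.42, 11.63 and 11.98 in DMS (12) and 10.74, 11.09 and 11.27 in DLS (12). At ZT18 the corresponding values were 10.11, 10.63 and 11.13 in NAc, 10.46, 10.76 and 11.03 in DMS and 10.02, 10.25 and 10.62 in DLS, each over 12 libraries. The libraries of ZT6 were thus all above those of ZT18 in DMS and DLS, while a few overlapped in NAc. The fitted amplitude (peak above the daily mean, log2 scale) was 0.43 ± 0.055 (SE, 77 libraries) in NAc, 0.41 ± 0.042 (70) in DMS and 0.35 ± 0.043 (70) in DLS. These amplitudes correspond to folds of 1.81, 1.76 and 1.63, with peaks at 5.97, 5.15 and 5.53 h and limma adjusted p of 1.61e-07, 6.83e-11 and 4.47e-09. With the mitochondrial rRNA share as covariate the DMS fold was 1.63 and the peak 6.09 h (adjusted p 9.91e-12).

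Hnrnpdl (ENSMUSG00000029328, chr5:100033577-100039664), which encodes the hnRNP D-like protein that binds AU-rich and other RNA elements, followed the same course with less spread between libraries. Its values at ZT6 were 11.51, 11.76 and 11.92 in NAc, 11.92, 12.00 and 12.29 in DMS and 11.28, 11.56 and 11.83 in DLS (lowest, median, highest). At ZT18 they were 10.82, 11.07 and 11.22 in NAc, 11.09, 11.29 and 11.49 in DMS and 10.71, 10.96 and 11.08 in DLS. No library of ZT18 reached any library of ZT6 in any subregion. The folds were 1.57 in NAc, 1.53 in DMS, 1.47 in DMS with the covariate and 1.43 in DLS, with peaks between 5.40 and 6.62 h. The limma adjusted p was 6.25e-10, 1.83e-12, 1.43e-12 and 1.06e-10. Srsf5 and Hnrnpdl were the only members of the 37 that passed the test in all 4 fits under each alternative tried for single members. The largest adjusted p was 0.0365 for Srsf5 (NAc animals numbered 31 and higher) and 0.0343 for Hnrnpdl (DLS animals numbered up to 29). Time as separate levels was tried for the counts of members only, so whether either gene passes under it was not tested.

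**Figure D2:**
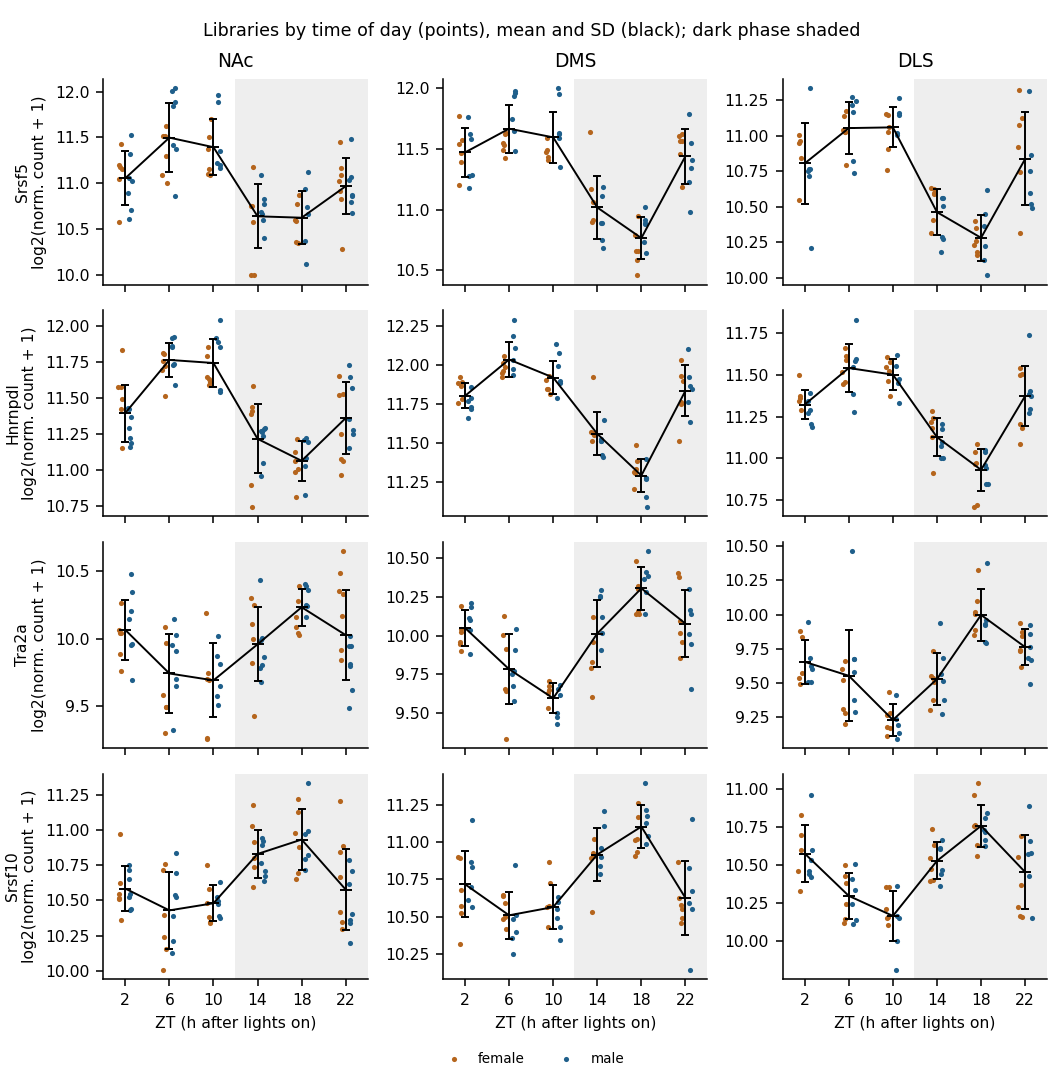
Level of Srsf5, Hnrnpdl, Tra2a and Srsf10 (rows) in each library by time of day in NAc, DMS and DLS (columns), as the deposited log2 values against hours after lights on. The values are log2 of the normalised count plus 1 in DMS and DLS, and in NAc a further step was applied that no label records. Orange points are females, blue points males, black bars mean and SD, and shading the dark phase. Srsf5 and Hnrnpdl have their lowest means at ZT18 in all 3 subregions, where Tra2a and Srsf10 have their highest.

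Tra2a (ENSMUSG00000029817, chr6:49243924-49264033) encodes an activator that binds GAA-rich exonic enhancers, and it ran against Srsf5 and Hnrnpdl. Its lowest, median and highest values at ZT10 were 9.26, 9.70 and 10.19 in NAc, 9.43, 9.63 and 9.71 in DMS and 9.10, 9.20 and 9.44 in DLS. At ZT18 they were 10.03, 10.24 and 10.40 in NAc, 10.14, 10.31 and 10.54 in DMS and 9.79, 9.94 and 10.38 in DLS. Every ZT18 library lay above every ZT10 library in DMS and DLS, and the ranges overlapped in NAc. The folds were 1.38 (amplitude 0.23 ± 0.044), 1.49 (0.29 ± 0.033) and 1.48 (0.28 ± 0.038) in NAc, DMS and DLS, and 1.49 in DMS with the covariate. The peaks, at 20.1, 20.1, 20.7 and 20.4 h, lay within 0.663 h of each other, the narrowest range of the members that passed in all 4 fits. The limma adjusted p was 0.00125, 3.92e-09, 1.25e-07 and 8.7e-10. Within animals numbered 31 and higher in NAc (amplitude 0.18, adjusted p 0.525) and within those numbered up to 29 in DLS (0.22, adjusted p 0.162) the test was not passed. A gene annotated on the opposite strand overlaps Tra2a, and no source says whether reads were counted by strand.

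Its paralogue Tra2b, the better studied of the pair and a target of its own poison exon, peaked earlier in the dark phase and with a smaller fold. The fitted peak was at 15.1 h in NAc, 14.6 h in DMS, 15 h in DMS with the covariate and 15 h in DLS, with folds of 1.13, 1.27, 1.17 and 1.16. Limma adjusted p was 0.321, 1.08e-05, 0.00246 and 0.00121, so that Tra2b passed in DMS and DLS and not in NAc. In DLS, where the ZT14 libraries were the highest, the values were 10.65, 10.81 and 11.03 at ZT14 against 10.29, 10.56 and 10.74 at ZT6. These ranges overlapped. The call was lost within the low class in DMS (adjusted p 0.156) and within animals numbered up to 29 in DLS (0.102) and in DMS with the covariate (0.249).

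Srsf10 (ENSMUSG00000028676, chr4:135855747-135869908) encodes SRp38, an SR protein that turns into a general splicing repressor when it loses its phosphates after heat shock or during mitosis. Its values at ZT10 were 10.34, 10.48 and 10.76 in NAc, 10.35, 10.57 and 10.86 in DMS and 9.81, 10.16 and 10.36 in DLS. At ZT18 they were 10.65, 10.93 and 11.34 in NAc, 10.91, 11.08 and 11.39 in DMS and 10.56, 10.74 and 11.04 in DLS. As for Tra2a, the 2 times did not overlap in DMS and DLS and did in NAc. The folds were 1.37, 1.40 and 1.34 in NAc, DMS and DLS and 1.32 in DMS with the covariate, with peaks at 17.2, 17.4, 19.7 and 18.9 h and limma adjusted p of 0.000109, 2.7e-06, 6.48e-06 and 5.98e-07. Within animals numbered 31 and higher in NAc (amplitude 0.22, adjusted p 0.254) and those numbered up to 29 in DLS (0.21, adjusted p 0.176), and within the low class in DMS (0.11, adjusted p 0.277), Srsf10 did not pass.

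The other SR proteins showed smaller changes, mostly with highest levels in the dark or around lights on. Srsf2, known as SC35 and widely used to mark nuclear speckles, passed in every fit with peaks from 16.7 to 18.6 h and folds of 1.24 in NAc, 1.18 in DMS, 1.14 in DMS with the covariate and 1.10 in DLS (limma adjusted p 0.00125, 2.4e-05, 0.000218 and 0.0163), but not within NAc animals numbered 31 and higher (adjusted p 0.512), the low class in DMS (0.397) or animals numbered up to 29 in DLS (0.518). In DMS with the covariate the call of Srsf2 was lost under 1 of 11 alternatives (limma adjusted p 0.154). Srsf11, an SR protein involved in the inclusion of neuronal microexons, was highest around lights on: in DLS its values were 9.81, 10.12 and 10.53 at ZT22 against 9.55, 9.76 and 9.94 at ZT10, ranges that overlapped. Its fold was 1.29 in DMS (adjusted p 0.00017), 1.10 in DMS with the covariate (0.0151) and 1.26 in DLS (6.64e-07), beside 1.08 in NAc (0.682). The call in DMS was lost within the high class (0.0957) and animals numbered 31 and higher (0.211), and that with the covariate within either range of animal numbers (0.125 and 0.0803) and with libraries scaled to an equal sum (0.139). Srsf6, known as SRp55, which acts on an alternative exon of tau, had folds of 1.12 in DMS, 1.11 in DMS with the covariate and 1.20 in DLS, with peaks at 0.971, 0.914 and 0.445 h (adjusted p 0.000639, 0.00538 and 4.43e-05). Srsf6 did not pass within either class or either range of animal numbers in DMS (adjusted p 0.0542 to 0.166), within either range with the covariate (0.13 and 0.129) or within DLS animals numbered up to 29 (0.115). Srsf9 did not pass in any fit (folds 1.05 to 1.09).

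Among the hnRNP proteins the members that passed in all 4 fits, Hnrnpa1, Hnrnpdl, Hnrnpl and Hnrnpr, each peaked in the light phase. Hnrnpr, which binds mRNAs carried into axons, had folds of 1.19 in NAc, 1.13 in DMS, 1.10 in DMS with the covariate and 1.12 in DLS, with peaks from 4.77 to 6.87 h (limma adjusted p 0.00041, 0.00165, 0.00916 and 0.00216). Hnrnpl, which recognises CA-rich elements, had folds of 1.14, 1.12, 1.18 and 1.16 with peaks from 4.32 to 6.41 h (adjusted p 0.0233, 0.00596, 1.01e-07 and 4.43e-05). Hnrnpl in DLS ranged from 11.62 to 12.01 at ZT6 and from 11.49 to 11.70 at ZT18, so even here the times overlapped. Neither gene passed within NAc animals numbered 31 and higher (adjusted p 0.354 for Hnrnpr and 0.25 for Hnrnpl) or within DLS animals numbered up to 29 (0.29 and 0.246). Hnrnpl also missed within NAc animals numbered up to 29 (0.287), and Hnrnpr in DMS within either class (0.0729 and 0.38) and animals numbered 31 and higher (0.457), with the covariate within the latter (0.427), and in DLS with libraries scaled to an equal sum (0.138). Hnrnpa1, the best known antagonist of SR proteins and named here after its values were seen, had a fold of 1.15 to 1.16 in every fit, and its peak was at 9.69 h in NAc and 6.65 h in DMS. Its call was lost within animals numbered 31 and higher in NAc (adjusted p 0.499), DMS (0.169) and DMS with the covariate (0.15), within the high class in DMS (0.0922) and within DLS animals numbered up to 29 (0.177).

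A second set of hnRNP genes was highest near the end of the night. Hnrnpm, which binds GU-rich elements and acts on alternative exons, peaked between 21.6 and 23.3 h, with folds of 1.34 in DMS, 1.21 in DMS with the covariate and 1.24 in DLS (limma adjusted p 3.51e-07, 1.53e-08 and 6.13e-07), beside 1.20 in NAc (0.0574). In DMS its values were 11.64, 12.05 and 12.19 at ZT22 and 11.34, 11.66 and 11.78 at ZT10, ranges that overlapped. Hnrnpc, a binder of uridine tracts that shields cryptic exons, peaked between 21.6 and 23.6 h in NAc (fold 1.19, adjusted p 0.0141), DMS with the covariate (1.21, 2.64e-08) and DLS (1.14, 0.000437), and did not pass in DMS without it (1.13, 0.0715). In DMS without the covariate Hnrnpc gained the call under 7 of 14 alternatives. Hnrnph1, which binds G-tracts, had folds of 1.18 in DMS, 1.15 in DMS with the covariate and 1.14 in DLS, with peaks from 22 to 23.4 h (adjusted p 8.9e-07, 1.34e-05 and 0.000105). Hnrnpa2b1, which sorts mRNAs into transport granules, peaked just after lights on, between 1.28 and 1.67 h, in the same 3 fits, with folds of 1.23, 1.12 and 1.14 (adjusted p 4.43e-08, 2.92e-06 and 2.19e-05). Within DLS animals numbered up to 29 Hnrnpc (0.276), Hnrnph1 (0.24) and Hnrnpa2b1 (0.359) did not pass, nor did Hnrnpc within NAc animals numbered 31 and higher (0.497). At the other end, Hnrnpab, an RNA-binding protein of mRNA transport and translation, did not pass in any fit and had folds of 1.01 to 1.05.

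By phase, 8 of the 12 members that passed in NAc peaked in the light phase and 4 in the dark. In DMS the split was 18 in the light and 11 in the dark, in DMS with the covariate 12 and 14, and in DLS 11 and 12. The split moved with the scaling: with libraries brought to an equal sum of all genes outside ribosomal RNA it became 22 and 8 in DMS, 11 and 11 in DMS with the covariate and 7 and 12 in DLS, and it stayed 8 and 4 in NAc. Over all genes that passed, the light and dark counts were 131 and 173 in NAc, 3076 and 3131 in DMS, 1594 and 1865 in DMS with the covariate and 1146 and 1246 in DLS. In all, 33 of 37 members passed in at least 1 fit, 8 passed in all 4 (Hnrnpa1, Hnrnpdl, Hnrnpl, Hnrnpr, Srsf2, Srsf5, Srsf10 and Tra2a), and Clk2, Clk4, Hnrnpab and Srsf9 passed in none. Of the 11283 genes found in all 3 tables, 64.2% passed in at least 1 fit, against 89.2% of the members, and 1.77% passed in all 4, against 21.6%.

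**Figure D3:**
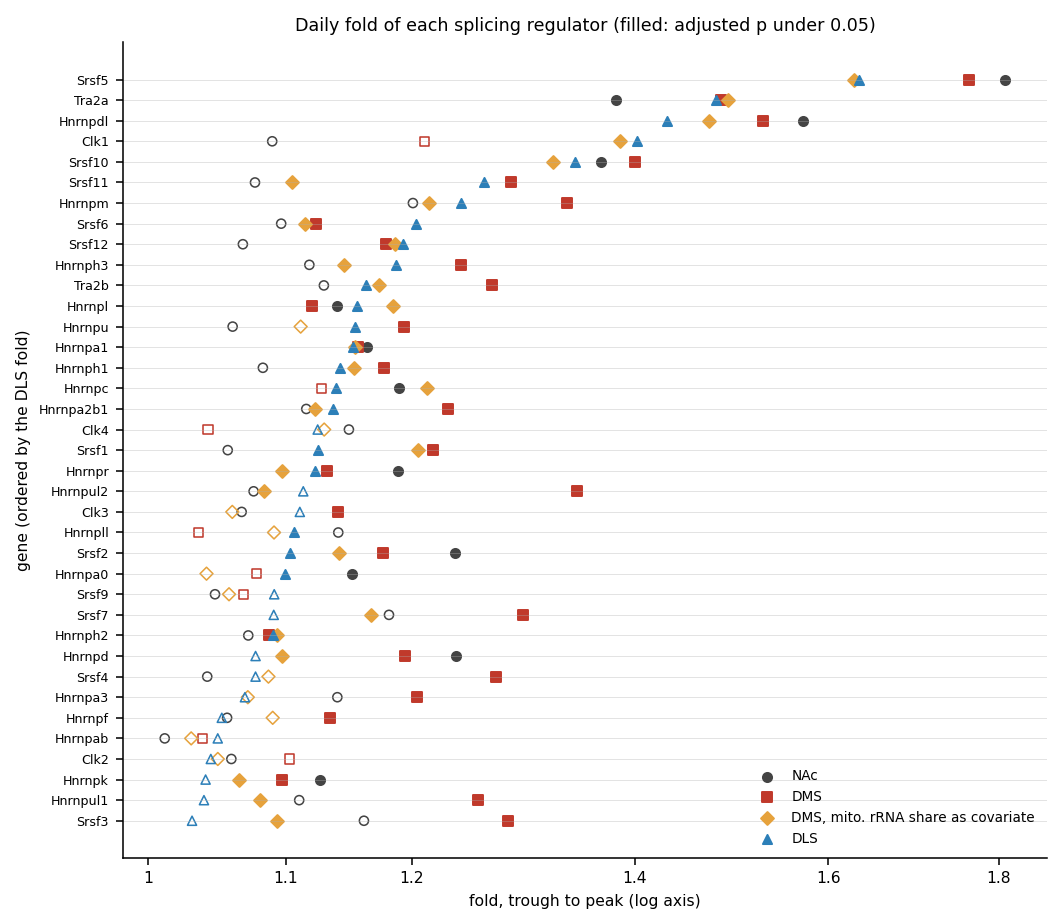
Fold from fitted trough to fitted peak (x axis, logarithmic) for each of the 37 genes (y axis, ordered by the DLS fold) in NAc, DMS, DMS with the mitochondrial rRNA share as covariate, and DLS; filled symbols passed the test. Srsf5, Tra2a, Hnrnpdl and Srsf10 carry filled symbols in all 4 fits, and Clk1 has filled symbols at 1.39 and 1.40 beside open ones at 1.09 in NAc and 1.21 in DMS.

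In DMS the covariate changed single members more than their number. Of the members, 24 passed with and without it, and 20 of these 24 had a smaller amplitude with it (83.3%). Over all genes 21% passed in both, against 64.9% of the members, and 71.7% of those had a smaller amplitude with the covariate. Clk3, Hnrnpa3, Hnrnpf, Hnrnpu and Srsf4 passed only without it, and Clk1 and Hnrnpc only with it. These differences depended on the setting. Without the covariate Hnrnpc gained the call under 7 of 14 alternatives and Clk1 under 4 of 14. With it Hnrnpu gained the call under 2 of 11, and Clk3, Hnrnpf and Srsf4 under 1 of 11 each. Among the 24, the fitted peak moved by a median of 1.32 h and at most by 5.11 h (Hnrnpul2). Srsf5, Hnrnpdl and Tra2a passed within the low class, within the high class, and within each range of animal numbers in DMS. Their amplitudes were 0.27, 0.18 and 0.19 in the low class and 0.44, 0.37 and 0.37 in the high class. The classes covered the times unevenly. The low class held 2 libraries at ZT18, each from a female, and the high class held 3 at ZT2 and 2 at ZT22. The difference in amplitude between the classes was not tested. Whether the share and time of day act on these genes separately was not tested.

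The Clk kinases varied more between libraries than with time. Clk1 (ENSMUSG00000026034, chr1:58410189-58424066) stood out by ZT14, where its mean was highest in DMS and DLS and its spread smallest. In DLS the lowest, median and highest values were 9.46, 9.76 and 10.24 at ZT14 and 8.37, 9.08 and 9.69 at ZT2, ranges that overlapped. In DMS they were 9.85, 10.35 and 10.71 at ZT14 and 8.74, 9.59 and 10.65 at ZT10, so that the ZT10 libraries reached far into the ZT14 range.

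Clk1 passed in DLS (fold 1.40, peak 16 h, amplitude 0.24 ± 0.074, limma adjusted p 0.0343) and in DMS with the covariate (1.39, 16.1 h, 0.24 ± 0.067, adjusted p 0.0157), and did not in NAc (1.09, adjusted p 0.823) or in DMS without it (1.21, adjusted p 0.245). These calls were not firm: in DLS the adjusted p was 0.0658 with the mitochondrial rRNA share as covariate, 0.173 within animals numbered up to 29 and up to 0.0588 when 1 library was left out, and in DMS with the covariate it was 0.547 within animals numbered up to 29. In DMS without the covariate Clk1 gained the call under 4 of 14 alternatives. Clk3 passed in DMS only (fold 1.14, peak 1.90 h, limma adjusted p 0.0155), and not with the covariate (0.482). Its call in DMS was lost under 4 of 14 alternatives, with an adjusted p of up to 0.400. Clk2 had folds of 1.04 to 1.10 and Clk4 of 1.04 to 1.15, and neither passed in any fit, although the mean of Clk4, like that of Clk1, was highest at ZT14 in DMS (9.42 ± 0.23, SD) and DLS (8.89 ± 0.17).

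**Figure D4:**
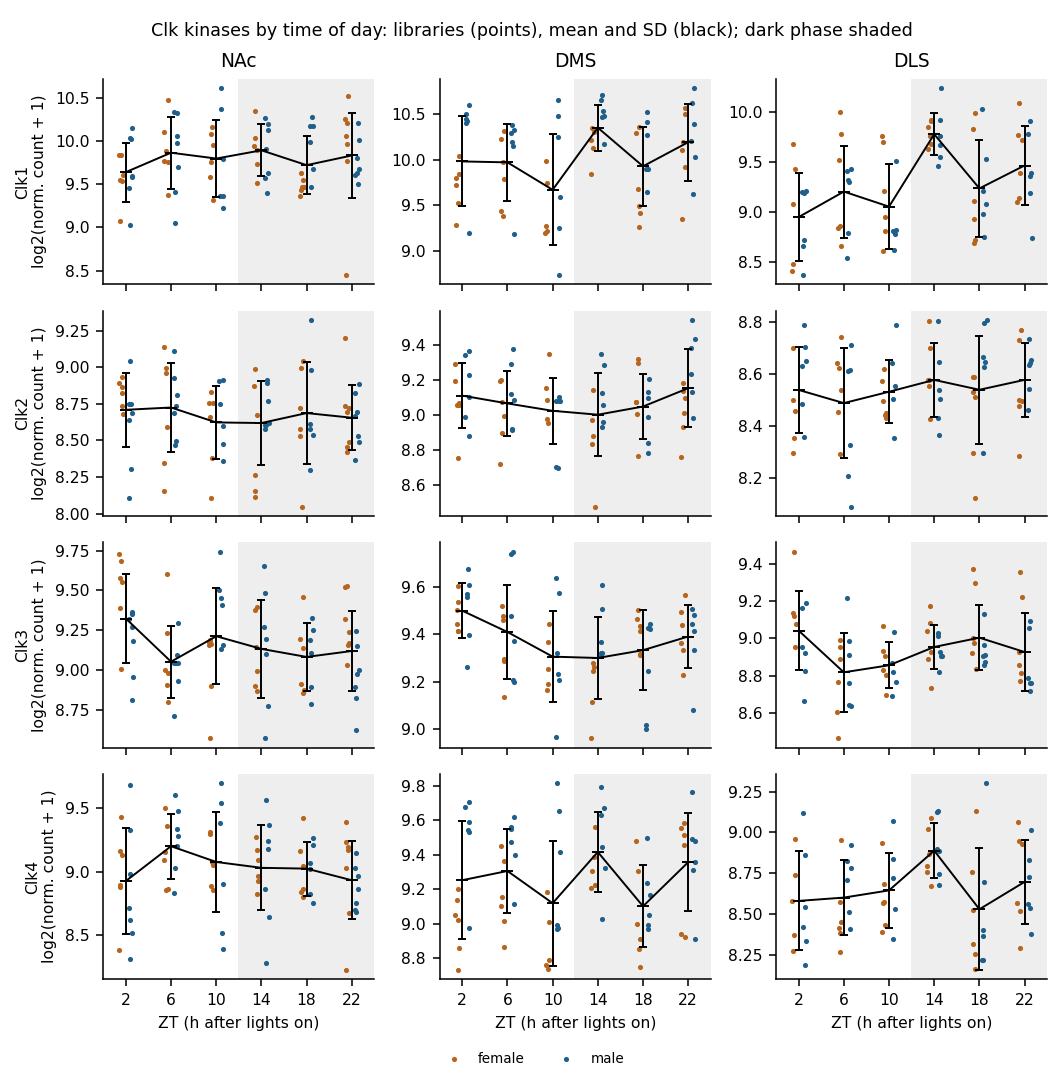
Level of Clk1, Clk2, Clk3 and Clk4 (rows) in each library by time of day in NAc, DMS and DLS (columns), as the deposited log2 values against hours after lights on, with females in orange, males in blue, mean and SD in black and the dark phase shaded. The values are log2 of the normalised count plus 1 in DMS and DLS, and in NAc a further step was applied that no label records. Clk1 has its highest mean at ZT14 in DMS (10.35 ± 0.25) and DLS (9.78 ± 0.21), and the libraries of most other times are spread more widely.

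Clk1 and Clk4, a pair of close paralogues, moved together between libraries that shared sex and time. The correlation of their deviations from the mean of their sex and time was r = 0.600 in NAc (rho 0.651, 77 libraries), 0.815 in the DMS low class (rho 0.808, 37), 0.721 in the DMS high class (rho 0.796, 33) and 0.730 in DLS (rho 0.681, 70). Each had a two-sided permutation p of 1e-05, the smallest that the permutations allow, and of 2.4e-05 after adjustment over 12 relations. In DMS some groups of class, sex and time held a single library, which by construction has no deviation for either gene. The permutations took no account of the subtracted means, so the p of these and the other pairs may be too small. Without the 2 libraries farthest from the median of Clk1, r was 0.615, 0.725, 0.693 and 0.689. Within animals numbered up to 29 r was 0.595 in NAc, 0.805 in DMS and 0.790 in DLS. Within those numbered 31 and higher it was 0.577 in NAc and 0.508 in DMS, but 0.0943 in DLS (permutation p adjusted 0.684), so the DLS relation did not hold in both ranges.

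Tra2a and Tra2b were related more loosely, with r of 0.517 in NAc (rho 0.561), 0.420 and 0.491 in the low and high DMS class (rho 0.407 and 0.365) and 0.377 in DLS (rho 0.255), and adjusted permutation p of 2.4e-05, 0.0126, 0.00545 and 0.00286 for r (2.4e-05, 0.0217, 0.0506 and 0.0505 for rho). Without the 2 libraries farthest from the median of Tra2a the values were 0.507, 0.271, 0.367 and 0.278, and the DMS relations no longer passed (adjusted permutation p 0.14 and 0.0579), so that these calls rest on those libraries. Within animals numbered up to 29 r was 0.646 in NAc, 0.512 in DMS and 0.509 in DLS (adjusted permutation p 2.25e-05, 0.00057 and 0.00436). Within those numbered 31 and higher it was 0.231, 0.404 and 0.0167, and none passed (0.346, 0.0925 and 0.919); the difference between the ranges was not tested. Clk2 and Clk3 showed no common direction, with r of -0.265 in NAc, 0.478 and -0.0408 in the low and high DMS class and -0.102 in DLS (rho -0.209, 0.411, -0.0234 and -0.122; adjusted permutation p 0.0240, 0.00521, 0.821 and 0.437 for r, and 0.0801, 0.0217, 0.9 and 0.343 for rho). Within animals numbered up to 29 r was -0.182 in NAc, 0.600 in DMS and -0.233 in DLS, and within those numbered 31 and higher -0.498, -0.375 and 0.0845; of these 6, those in DMS up to 29 (adjusted permutation p 5.4e-05) and in NAc from 31 (0.0239) passed.

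Males and females differed at few members (limma, male minus female with time as 6 levels). In NAc no member passed the test, where 0.0758% of all genes did, and in DLS none did, where 0.202% did; at an unadjusted p under 0.05 there was 1 member in NAc (Hnrnpul1) and 2 in DLS (Hnrnpa2b1 and Hnrnpa3). In DMS 1 of 37 passed, Clk4, where 0.909% of all genes did, and with the mitochondrial rRNA share as covariate 5 of 37 did, where 8.1% of all genes did. Those 5 were Srsf11 (higher in males by 0.17 ± 0.027, SE, adjusted p 2.84e-05), Clk4 (0.26 ± 0.050, 0.000435), Clk1 (0.35 ± 0.079, 0.00284), Hnrnpc (-0.078 ± 0.023, 0.0243) and Hnrnpab (-0.064 ± 0.021, 0.0422).

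Clk4 in DMS ranged over 8.73, 9.12 and 9.58 in females and 8.91, 9.46 and 9.81 in males (lowest, median, highest), a difference of 0.25 ± 0.061 (adjusted p 0.0204). The sexes overlapped over most of their range. Clk1 ranged over 9.20, 9.84 and 10.57 in females and 8.74, 10.36 and 10.79 in males, a difference of 0.33 ± 0.098 (adjusted p 0.0761). Sex and animal number were not balanced in DMS, with 17 females and 27 males numbered up to 29 and 17 females and 9 males numbered 31 and higher, and both kinases were lower in the upper range. Sex and mitochondrial rRNA class were not balanced in the lower range either, where the 7 high-class libraries were all from males. Within animals numbered up to 29 the male minus female difference was 0.24 for Clk4 (limma adjusted p 0.0570) and 0.33 for Clk1 (0.0425). Within those numbered 31 and higher it was 0.059 (0.578) and -0.036 (0.838), so the difference was not found in both ranges; whether the ranges differ was not tested. With a term for the range it was 0.16 for Clk4 (0.0245) and 0.17 for Clk1 (0.0987). With the share as covariate none of the 5 members passed within either range.

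**Figure D5:**
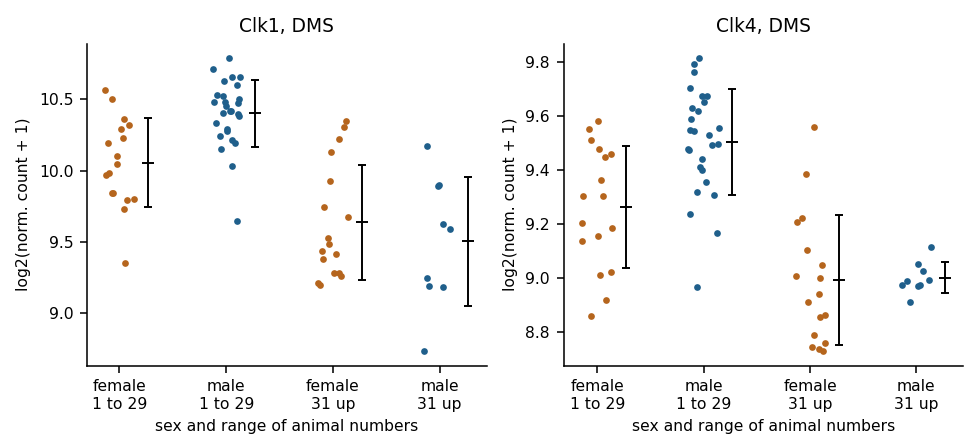
Level of Clk1 (left) and Clk4 (right) in DMS libraries, as log2 of the normalised count plus 1, by sex and range of animal numbers; points are libraries and bars mean and SD. Up to number 29 males average 10.40 for Clk1 and 9.51 for Clk4 against 10.05 and 9.27 in females, and from 31 the averages are 9.51 and 9.0 in males and 9.64 and 8.99 in females.

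No member showed a rhythm that differed between the sexes (limma, sex by cosine and sine), and no gene of any table did (0% in NAc, DMS and DLS). At an unadjusted p under 0.05 there were 2 members in NAc (Clk3 and Srsf6), 3 in DMS (Srsf9, Srsf12 and Hnrnpf) and 6 in DLS (Srsf6, Srsf11, Hnrnpa3, Hnrnpk, Hnrnpu and Hnrnpul2), and 475, 459 and 1284 of all genes. A p that misses the threshold does not show that the sexes share a rhythm.

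Promoter sequence gives a further property of the members that the choice by name did not use. RefSeq windows of GRCm38.p6 from 250 bases before to 50 after the transcription start were available for 34 of the 37 members; 6 of these have several windows, and a gene was counted when any of its windows held the letters. The letters TGACG, the core of the cyclic AMP response element, were found on either strand in 23 of the 34 genes (67.6%), beside 36.5% of 9325 protein-coding genes in the tables and 23% of 27025 genes in all. Counted by window, they were in 28 of the members' 46 (60.9%), beside 31.1% of 12132 and 20.8% of 32851. The members' windows were also richer in G and C, with a median of 65.7% against 61.5% and 52.8%, and held a median of 29 CG dinucleotides against 21 and 7; the part of base composition in the motif share was not tested. The full element TGACGTCA, which contains TGACG on both strands, was found in Clk4 and Tra2a (5.88% of the genes, beside 3.76% of genes in the tables). The 100 bases before the start are shown for the strongest light-phase gene, Srsf5, at chr12:80945399-80945498 (plus strand), for the dark-phase pair Tra2a at chr6:49264053-49264152 and Tra2b at chr16:22266006-22266105 (both minus strand), and for Hnrnpa1 at chr15:103240297-103240396 (plus strand), a light-phase gene without a match. Each is written 5′ to 3′ on the gene's strand, and capitals mark TGACG, its reverse complement CGTCA or the full element.
Srsf5: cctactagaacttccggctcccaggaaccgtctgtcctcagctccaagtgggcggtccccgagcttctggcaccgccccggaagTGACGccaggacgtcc
Tra2a: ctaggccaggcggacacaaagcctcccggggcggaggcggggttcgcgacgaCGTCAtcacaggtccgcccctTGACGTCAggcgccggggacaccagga
Tra2b: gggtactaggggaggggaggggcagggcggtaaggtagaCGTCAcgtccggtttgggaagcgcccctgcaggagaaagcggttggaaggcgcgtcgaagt
Hnrnpa1: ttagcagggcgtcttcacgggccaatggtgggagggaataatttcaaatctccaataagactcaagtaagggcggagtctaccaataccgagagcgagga
The match in Srsf5 starts 16 bases before the transcription start, those in Tra2a 48 and 27 bases before it, and that in Tra2b 61 bases before it. The letters are thus found in genes of both phases. Of the other genes with large folds in every fit, they were found in Srsf10 and not in Hnrnpdl.

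Other motifs were less common. The E-box CACGTG, bound by the circadian activators Clock and Bmal1, was found in 6 of the 34 genes (17.6%, beside 12.0% of genes in the tables), or 6 of 46 windows (13%, beside 9.92%): Clk2, Hnrnpa3, Hnrnpd, Hnrnpf, Hnrnph2 and Hnrnpm. The heat shock element core GAANNTTC was found in 5 genes (14.7% beside 6.79%), among them Tra2b, the D-box TTANGTAA in 2 (5.88% beside 1.77%) and AGGTCA, the core of the Rev-erb and Ror element, in 3 (8.82% beside 14.0%), all searched on both strands. None of these 4 was found in the windows of Srsf5, Hnrnpdl, Tra2a or Srsf10. A match is a description of the letters and no evidence of binding, and its absence says only that these letters are not in this window.

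In the GENCODE M21 annotation, 25 of the 37 members (67.6%) had at least 1 transcript classed as a target of nonsense-mediated decay, beside 28.6% of 11647 protein-coding genes in the tables, and 28 (75.7%) had 1 classed as a retained intron, beside 59.6%. The members had more annotated transcripts, with a median of 9 per gene against 5, and the part of that number in these shares was not tested. Clk1 has 7 retained-intron transcripts of 13 annotated, and Clk4 has 7 of 14. The deposited values are sums per gene, so these transcripts and the protein-coding ones were counted together.

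Of related genes, the cold-inducible RNA-binding proteins Rbm3 and Cirbp had large rhythms, with folds of 2.42 and 1.75 in NAc, 2.54 and 1.99 in DMS, 2.14 and 1.96 in DMS with the covariate and 2.33 and 1.88 in DLS. The fold of Rbm3 was above that of each member in every fit, and that of Cirbp in every fit other than NAc, where Srsf5 had 1.81. The counts that follow stand beside shares over all genes of 2.56% in NAc, 51.3% in DMS, 28.6% in DMS with the covariate and 21% in DLS. Of 5 measured SR protein kinases outside the Clk family none passed in NAc (limma, smallest adjusted p 0.369, and 0 at an unadjusted p under 0.05), 3 in DMS, 1 in DMS with the covariate and 2 in DLS. Of 24 other SR-like proteins and coactivators 1, 14, 13 and 7 passed, and of 50 core components of the spliceosome 1, 27, 14 and 13. Of 42 further splicing factors, only in part neuronal or tissue-specific, 3, 29, 19 and 15 passed, among them Sfpq in DLS (fold 1.71, limma adjusted p 2.7e-10). Of 15 genes of nonsense-mediated decay 0, 12, 3 and 1 passed (2 in NAc at an unadjusted p under 0.05).

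Some markers of other cells passed the test too. Over all genes 2.56% passed in NAc, 51.3% in DMS, 28.6% in DMS with the covariate and 21% in DLS. Of the endothelial and mural markers 4 of 8 passed in NAc, 8 of 9 in DMS, 5 of 9 in DMS with the covariate and 6 of 9 in DLS, and of the 13 medium spiny neuron markers 0 (2 at an unadjusted p under 0.05), 8, 9 and 8. The summed normalised count of the vessel markers ranged from 5041 to 8835 at ZT6 and from 6278 to 9122 at ZT18 in NAc, from 6980 to 10560 (median 8700) and 8722 to 10635 (median 10170) in DMS, and from 6707 to 9091 and 6337 to 8887 in DLS. Of 8 oligodendrocyte markers 0 (1 at an unadjusted p under 0.05), 5, 4 and 1 passed in NAc, DMS, DMS with the covariate and DLS. Their summed count had a median of 171916 (127621 to 253095) at ZT6 and 134744 (110505 to 160061) at ZT18 in DMS, beside medians of 76533 and 80906 in NAc and 96163 and 95612 in DLS. No marker of vessels or oligodendrocytes was listed at 0 in any library. The part of these cells in the rhythms of the splicing regulators was not tested.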

How the data were processed

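Per the labels' protocols, total RNA libraries of a stranded kit for ultra-low input were sequenced from both ends at 75 bp; the target depth was 40 M. Per the submitters' processing notes and the series' design text, reads were checked with FastQC, trimmed with Trimmomatic, aligned with HISAT2 2.1.0 to mouse GRCm38 and counted with HTSeq 0.10.0 in union mode; the notes also list GRCh38, a human build. The strand setting of the counting is not given in the sources used here. The deposited values are log2 of normalised counts, which the authors filtered and normalised with DESeq2 for each subregion separately. In DMS and DLS they are log2 of the normalised count plus 1, and 100% of the values of the median library were whole reads. In NAc 1.99% were and 9 values lay below 0, so a further step was applied that no label records. The labels state 11395 DLS genes and the table holds 11394.

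Symbols and coordinates came from GENCODE M21, which matched 11842, 12073 and 11371 identifiers. Each whole table was fitted with limma 3.58.1 (R 4.3.3, variance trend) with no added filter, and p-values were adjusted over all its genes. Correlations used permutation tests with 100000 resamples (scipy 1.17.1), which took no account of the subtracted means of sex and time. The scripts were tested on simulated data. Values are given 1 by 1 for the Clk and Tra2 genes and the 6 members of smallest p in each rhythm and sex fit, and for others by counts. The members, lists and tests were chosen with earlier results of these data known. Of 15 members overlapped by a gene on the opposite strand (Clk3, Clk4, Srsf1, Srsf2, Srsf4, Tra2a, Hnrnpab, Hnrnpd, Hnrnpf, Hnrnph3, Hnrnpk, Hnrnpl, Hnrnpll, Hnrnpr and Hnrnpu) the values are uncertain, and processed pseudogenes, common in these families, could share reads. A gene annotated on the same strand overlaps Clk4, Srsf4, Srsf11, Hnrnpa3, Hnrnpk, Hnrnpm and Hnrnpul2, so their values are uncertain under any strand setting. The errors printed are those between libraries. Alternatives were the pseudocount, a filter, the scaling, no variance trend, a replicate block, terms or subsets for animal number and mitochondrial rRNA class, time as 6 levels, recovered reads with voom, and leaving out each library. For rhythms, time as 6 levels was tried for the counts of genes that passed and not for single members.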

Additional observations from a re-analysis of the deposited data

Results flagged for a closer look

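Within groups of 1 subregion, sex and time, single libraries far from the others were sought for 6 genes (Srsf5, Hnrnpdl, Tra2a, Srsf10, Clk1 and Clk4). The gap used is one that Dixon's test expects in about 1 in 20 groups. Each group was tested once for each gene, and 12 of these 216 tests held such a library, which is near that share. The tests are not independent, because the genes were read in the same libraries. Srsf5 had no such library. Values are log2 normalised counts. In NAc, Tra2a was 10.44 in the male numbered 25 at ZT14, where the others ran from 9.68 to 10.00, and Clk1 was 8.45 in the female numbered 5 at ZT22, where the others ran from 9.77 to 10.52. In DMS the female numbered 25 at ZT14 had the highest Hnrnpdl, 11.92 (others 11.51 to 11.57), and the lowest Srsf10, 10.53 (others 10.89 to 11.02). That female was the only library of its group with an animal number up to 29 and in the low class of mitochondrial rRNA share (28.4%, others 39.2% to 52.6%). The DMS male numbered 31 at ZT2 was low for both paralogues, with Clk1 at 9.19 (others 10.40 to 10.60) and Clk4 at 8.98 (others 9.53 to 9.71), and the male numbered 34 at ZT6 had Clk1 at 9.18 (others 10.15 to 10.38). Each was the only library of its group with a number of 31 or higher, the range in which both kinases were lower; the male numbered 31 was also the only high-class library of its group (42.6%, others 22.3% to 25.3%), while at ZT6 1 other male was in the high class. In DLS, Tra2a was 10.46 in the male numbered 13 at ZT6 (others 9.29 to 9.67), the library with 13.2% of its normalised counts in mitochondrial rRNA and 68.4% in rRNA-like genes, and 10.38 in the male numbered 29 at ZT18 (others 9.79 to 9.96). Also in DLS, Hnrnpdl was 11.74 in the male numbered 1 at ZT22 (others 11.27 to 11.40), Srsf10 10.96 in the male numbered 10 at ZT2 (others 10.42 to 10.59) and Clk1 9.51 in the male numbered 17 at ZT10 (others 8.63 to 8.83).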

How the results depend on the processing

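Of 2386 alternative values for the rhythms of the 37 members and the sex differences of those named, 2184 stayed on the same side of the threshold, 160 lost the call and 42 gained it. Among values that were called, 3 changed sign and no fitted peak moved by over 6 h; among those not called, 25 sex differences changed sign and 23 peaks moved by over 6 h. The 3, which also lost the call, were sex differences in DMS with the mitochondrial rRNA share as covariate within animals numbered 31 and higher: -0.11 for Clk1, -0.029 for Clk4 and 0.024 for Hnrnpc. The cause was not tested. The subsets by animal number and by class, and the covariate in the test of sex by rhythm, were chosen after seeing the data. The number of rhythmic members fell in subsets, which hold fewer libraries: 2 within NAc animals numbered 31 and higher (32 of all genes), 16 and 15 within the low and high class in DMS (948 and 1811), 15 within DMS animals numbered 31 and higher (1235; 25 and 2559 up to 29), 4 within DLS animals numbered up to 29 (331; 22 and 2147 from 31), and 16 and 16 within the ranges in DMS with the covariate (1344 and 1824). With time as 6 levels it was 7 in NAc (183 of all genes, against 304). Scaling to an equal sum gave 19 in DLS (1478 of all genes, against 2392) and 22 in DMS with the covariate. With a term for the range or the class, 28 and 26 members were rhythmic in DMS, while all genes fell from 6207 to 3772 and 3051; with the share as covariate in NAc it was 14 (508). In DMS the sex count, 1, was 0 with equal-sum scaling (92 of all genes) and within the high class (579) and animals numbered 31 and higher (866), 2 within the low class (41), 3 with a term for the class (509) and 8 with a term for the range (1995). With the covariate, 5 became 3 with equal-sum scaling, 1 with a term for the range (37 of all genes, against 980) and 0 and 0 within the ranges (34 and 31). In NAc the share as covariate gave 2 (330 of all genes, against 9). Leaving out each library gave 11 to 13 rhythmic members in NAc, 29 to 30 in DMS, 25 to 29 in DMS with the covariate and 21 to 24 in DLS, and 1 to 3 sex calls in DMS (2 without the female numbered 2 at ZT22, or the males numbered 31 at ZT2, 34 at ZT6 or 38 at ZT10, and 3 without the male numbered 47 at ZT22) and 4 to 6 with the covariate. Without the DLS male numbered 13 at ZT6 the DLS rhythm count was 22, and without the females numbered 2, 3 and 4 at ZT22 it was 24. Correlations that lost their call were Clk1 with Clk4 in DLS from 31 (0.0943), Clk2 with Clk3 in NAc without the 2 farthest libraries (-0.235) and up to 29 (-0.182), and Tra2a with Tra2b in NAc from 31 (0.231), in the DMS low class without the 2 farthest libraries (0.271), in the high class without them (0.367) and from 31 (0.404), and in DLS from 31 (0.0167). Males and females with the same number share only that number; with it as a replicate block 12, 28, 26 and 22 members were rhythmic in NAc, DMS, DMS with the covariate and DLS (323, 4358, 3451 and 2044 of all genes), the sex count in DMS was 2 (202), and the block correlation over genes was between -0.045 and 0.24. No setting gave a sex difference of rhythm. Scaling to an equal sum changed all genes by a daily amplitude of at most 0.038 (log2), and the amount subtracted from single libraries ran from -0.19 to 0.78.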
